A study of Mus musculus with 2 samples.

Results

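The genes described here are the 4 mammalian tropomyosin genes (Tpm1, Tpm2, Tpm3 and Tpm4), the α-actinins Actn1 and Actn4 with filamin A (Flna), and the nonmuscle myosin II heavy chains Myh9 and Myh10. They were taken as the rows of the deposited ATAC-seq peak table whose gene symbol is one of these 9 names, which gave 53 of 63316 peaks, in 9 of the 16934 genes with a peak. ATAC-seq measures how open chromatin is by the number of adapters that the Tn5 transposase inserts in a region. The 2 libraries came from mouse primary cardiac fibroblasts, both given TGF-β at 5 ng/ml over 24 h after transfection with a scrambled siRNA (SCR, labelled NC) or with an siRNA against Piezo2 (siPiezo2), a mechanically gated cation channel. With 1 library per condition, replicates cannot show how far any difference exceeds the spread between cultures. The labels name no strain or age, and an siRNA acts on the transcript, so open chromatin at Piezo2 does not check the knockdown. The design text deposited with the series speaks of a knockout of Tet3 with Cre in place of an siRNA, the methods describe minced tissue and another kit, and the groups here follow the sample labels.

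Tropomyosins are coiled-coil proteins that lie end to end along the actin filament and set which motors and regulators reach it. In some of these genes, longer and shorter forms start from separate promoters. α-Actinins and filamin A join filaments into bundles and networks, and the nonmuscle myosin II heavy chains pull on them. In fibroblasts that become myofibroblasts, these proteins make up the stress fibres through which the cell pulls on the matrix.

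The peaks at the tropomyosin starts are described in most detail below, so 4 of the 10 promoters that RefSeq holds for these 9 genes are shown first. Each runs from 250 bases before to 50 bases after the RefSeq start, 5′ to 3′ on the strand of the gene, in build GRCm38.p6. The peaks themselves are given in the coordinates of the table, which are those of GRCm39, so positions differ between the builds. Capitals mark GGGCGG, the core of the GC box bound by Sp1, and GGAATG, the core letters bound by TEAD factors, on either strand. Tpm1 lies at chr9:67049164-67049463 (minus strand), Tpm2 at chr4:43523505-43523804 (minus strand), the second RefSeq promoter of Tpm3 at chr3:90079271-90079570 (plus strand) and Tpm4 at chr8:72135038-72135337 (plus strand).
Tpm1: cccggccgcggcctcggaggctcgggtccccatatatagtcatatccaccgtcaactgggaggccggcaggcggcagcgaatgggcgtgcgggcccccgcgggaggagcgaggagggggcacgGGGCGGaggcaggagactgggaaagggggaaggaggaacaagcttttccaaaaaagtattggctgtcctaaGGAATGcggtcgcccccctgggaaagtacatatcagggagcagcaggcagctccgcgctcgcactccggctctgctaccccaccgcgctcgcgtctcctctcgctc
Tpm2: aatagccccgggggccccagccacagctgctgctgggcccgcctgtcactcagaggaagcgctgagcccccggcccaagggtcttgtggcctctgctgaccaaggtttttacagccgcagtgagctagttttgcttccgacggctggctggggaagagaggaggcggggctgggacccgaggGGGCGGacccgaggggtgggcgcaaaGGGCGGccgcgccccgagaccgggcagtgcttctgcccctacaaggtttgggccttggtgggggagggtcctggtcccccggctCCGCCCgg
Tpm3: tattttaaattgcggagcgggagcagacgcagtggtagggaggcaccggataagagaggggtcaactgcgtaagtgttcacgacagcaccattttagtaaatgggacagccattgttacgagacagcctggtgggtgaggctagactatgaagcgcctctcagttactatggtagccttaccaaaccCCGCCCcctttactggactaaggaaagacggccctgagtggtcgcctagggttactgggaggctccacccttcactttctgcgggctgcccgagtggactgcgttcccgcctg
Tpm4: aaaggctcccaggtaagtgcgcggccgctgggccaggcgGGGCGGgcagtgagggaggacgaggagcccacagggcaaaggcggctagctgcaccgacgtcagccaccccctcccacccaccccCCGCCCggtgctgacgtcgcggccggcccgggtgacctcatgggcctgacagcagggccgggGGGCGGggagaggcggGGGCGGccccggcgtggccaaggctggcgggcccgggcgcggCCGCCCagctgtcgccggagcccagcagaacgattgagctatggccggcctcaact

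The RefSeq starts of these 4 promoters lie 193, 41, 19 and 29 bases from the starts of the transcripts that the table names at the peaks described below. The GC content was 66.3% in Tpm1, 70.3% in Tpm2, 55.7% in Tpm3 and 76.0% in Tpm4, against a median of 52.7% over 32851 RefSeq promoters of the same length. GGGCGG was present in 8 of the 10 promoters of the 9 genes and in 35.7% of all promoters. GGAATG was present in 4 of the 10 (Tpm1, Actn4, Flna and Myh10) and in 14.7% of all, and in Tpm1 it begins 56 bases before the start. The CArG box, bound by SRF, was searched by its full consensus on both strands and was present in 0 of the 10 windows and in 1.63% of all. A match describes the letters of the window, and windows of this length say nothing about sites farther away.

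In the authors' normalized read densities, each of the 9 genes had a lower sum in the siPiezo2 library than in the SCR library, although for Myh10 this leaves out a peak at its start that the table gives to another gene. The values are log2((siPiezo2 + 1)/(SCR + 1)) of the densities summed over the peaks of a gene. Their median was -0.34 over the 9 genes and -0.093 over all 16934 genes, of which 62.6% were below 0. The 95% exact binomial (Clopper-Pearson) interval from the reads behind the densities lay below 0 for 7 of the 9 genes, as it did for 15.2% of all genes, and above 0 for none of them (4.37% of all genes). All of the 9 but Myh10 were above the median density of all genes. More reads make an interval narrower, so all genes are not a like background. Over peaks called in both libraries alone, the interval lay below 0 for Tpm1, Tpm4, Actn1 and Myh9. It crossed 0 for Tpm2, Tpm3, Actn4 and Flna, and Myh10 had no such peak. No gene of the 9 passed 1.5-fold (siPiezo2 below 0.66 or above 1.5 of SCR), against 6.21% of all genes lower and 1.54% higher. These intervals hold the error of counting alone. At peaks of similar read number that were called in both libraries the variance was 2.40 times as large. For the sums over all peaks of each of the 9 genes, and for their single peaks, an interval was widened by this factor. It is given beside the first one where it alone reaches 0. For sums over part of the peaks of a gene it was not computed, so an interval below 0 there covers counting error only.

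Tpm2 (104.6 in SCR against 71.3 in siPiezo2, log2 ratio -0.55) and Actn4 (454 and 313, -0.54) had the lowest ratios. Tpm1 (228 and 164, -0.47), Tpm4 (162 and 118, -0.45) and Myh9 (851 and 671, -0.34) came next. Flna (99.0 and 81.8, -0.27), Myh10 (48.9 and 41.1, -0.25), Tpm3 (267 and 230, -0.21) and Actn1 (729 and 653, -0.16) were nearest to 0. Neighbours in this order had overlapping intervals, and the sums depend on the number of peaks of a gene, so levels are not compared between genes. With a median-of-ratios factor Actn1 was at -0.019 and Tpm3 at -0.073, and with trimmed mean scaling at -0.016 and -0.069. The 2 α-actinins differed by more than the counting error, with intervals of -0.69 to -0.38 in Actn4 and -0.27 to -0.047 in Actn1, although the widened intervals (-0.77 to -0.30 and -0.33 to 0.013) overlapped. Over the peaks called in both libraries alone, this difference was not seen, with ratios of -0.17 in Actn4 (-0.41 to 0.071) and -0.19 in Actn1 (-0.32 to -0.056). These 2 intervals are from counting alone, with no widened one computed. The widened interval also reached above 0 for Tpm3 (-0.50 to 0.076), and both intervals did for Flna (-0.59 to 0.043 from counting) and Myh10 (-0.71 to 0.20).

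**Figure D1:**
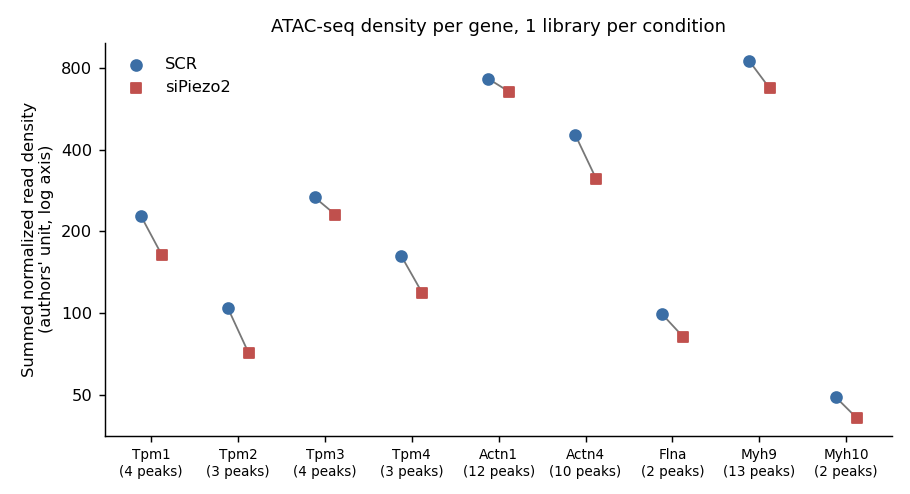
Summed normalized read density of each gene (authors' unit, log axis) in the SCR library (circles) and the siPiezo2 library (squares), with the number of peaks summed under each name and 1 library per condition. The line falls from SCR to siPiezo2 in all 9 genes, from 228 to 164 in Tpm1 and from 729 to 653 in Actn1.

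**Figure D2:**
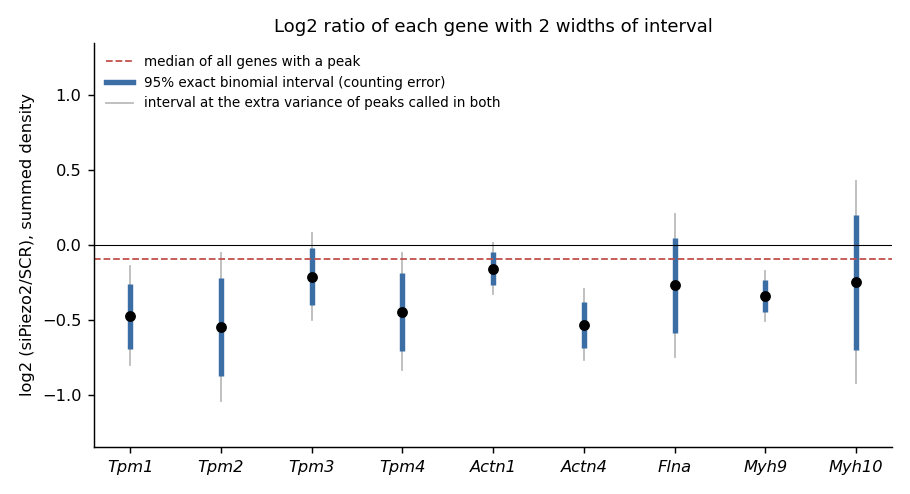
Log2 ratio of siPiezo2 to SCR for each gene (points), with the 95% exact binomial interval (thick bars) and the interval widened to 2.40 times the counting variance (thin lines), and the median of all genes at -0.093 (dashed line). The thick bars of Flna and Myh10 reach 0, and the thin lines of Tpm3 and Actn1 do so as well.

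Of the 53 peaks, 46 had a log2 ratio below 0 (86.8%, against 63.7% of all peaks). Lower past 1.5-fold were 14 (26.4%, against 13.5% of all peaks and 11.5% of the peaks above the median density, to which 50 of the 53 belong), and higher were 0 (3.21% of all peaks). With a median-of-ratios factor or trimmed mean scaling the lower peaks were 9 (8.35% and 8.23% of all peaks), of which 4 lay in Actn4, 3 in Myh9, 1 in Actn1 and 1 in Tpm1. The higher peaks were then 1, and the share of all peaks higher under these scalings was not computed. The interval lay below 0 at 19 of the 53 (11.4% of all peaks and 14.8% of those above the median density) and above 0 at none of them (3.63% and 5.34%). The widened interval lay below 0 at 8 of the 53 (2.83% and 4.76%), in Tpm1, Actn4 and Myh9. Those in Tpm1 were called in both libraries. Those in Actn4 and Myh9 were all called in SCR only, so they entered through the library where they are higher. The 19 likewise include peaks called in SCR only, so neither count is independent of the calling. More reads make an interval narrower, and the share of the peaks above the median density is the nearer background. The threshold fell between a Myh9 intron peak at a ratio of 0.658 and the Tpm4 exon peak at 0.661. At 2-fold, 2 of the 53 were lower (2.76% of all peaks) and 0 higher (0.504%). The peaks were called in both libraries in 26 cases (33.8% of all peaks are), in SCR only in 26 (64%) and in siPiezo2 only in 1 (2.16%). Lower past 1.5-fold were 3 of the 26 called in both (5.36% of all such peaks) and 11 of the 26 called in SCR only (18.3%). The 3 all lay in Tpm1, and the 11 lay in Actn4 and Myh9 (4 each), Tpm2 (2) and Actn1 (1). All 53 peaks held between 42 and 418 reads in SCR (median 134) and between 22 and 184 in siPiezo2 (median 53).

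**Figure D3:**
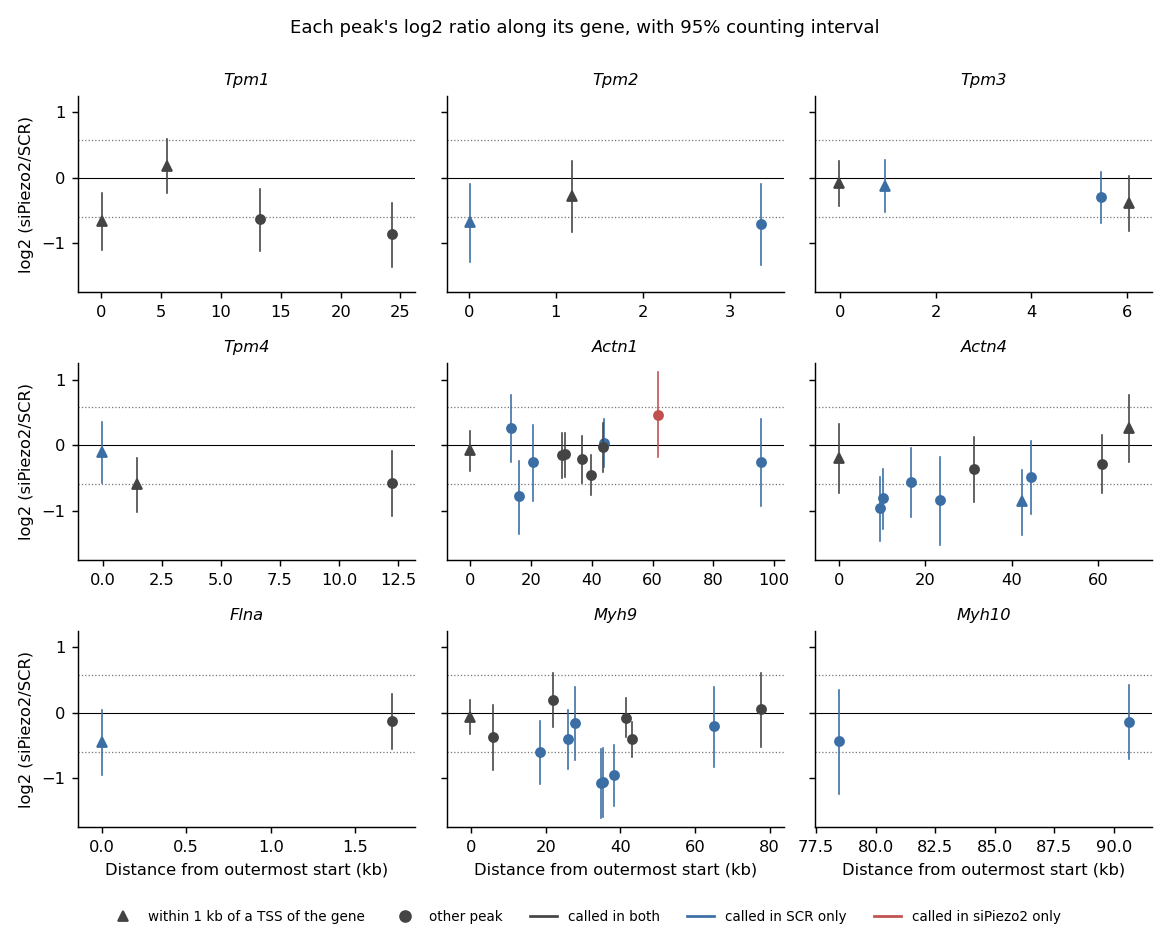
Log2 ratio of siPiezo2 to SCR (vertical axis, with 95% counting interval) of each of the 53 peaks against its distance in kb from the outermost transcript start that the table names for the gene, where triangles lie within 1 kb of a start of the gene itself and colours give the library in which the peak was called. Points below 0 prevail in every gene, while the first triangles of Tpm3, Tpm4, Actn1 and Myh9 lie close to 0; dotted lines mark the thresholds of 0.66 and 1.5.

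Tpm1, which gives the broadly made striated, smooth muscle and fibroblast tropomyosins, had open chromatin at both of its promoters. The upstream start (chr9:66956330-66957015, 5′ UTR, 16 bp from the start of ENSMUST00000113707, which codes for 284 residues) had a density of 67.1 in SCR against 42.1 in siPiezo2, a log2 ratio of -0.66 (-1.10 to -0.24). The internal promoter, 5474 bp from the outermost start (chr9:66950976-66951452, at the start of ENSMUST00000113696, which codes for 248 residues), had 48.7 in SCR against 55.6 in siPiezo2, a log2 ratio of 0.19 (-0.23 to 0.60). So the upstream start was lower past 1.5-fold in the deposited densities, at 0.633 of SCR, and the internal one was not. The upstream start was no longer past 1.5-fold with a median-of-ratios factor (0.696), trimmed mean scaling (0.697) or the same total of densities (0.672), and was past it in recovered reads at the same total (0.622). The internal peak stood above the upstream peak by 0.85 on the log2 scale (0.25 to 1.45), and the widened interval of that difference was -0.040 to 1.74. The peaks inside the gene were also lower past 1.5-fold as deposited, and the exon is numbered in the 248-residue transcript, as is the intron. The exon 2 peak (chr9:66943218-66943602) had 54.9 in SCR against 35.1 in siPiezo2 (log2 ratio -0.63, interval -1.11 to -0.17, widened -1.34 to 0.069), and the intron 7 peak (chr9:66932200-66932582) had the lowest ratio of the gene, with 57.5 and 31.1 (-0.86, interval -1.37 to -0.38).

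Tpm2, the β-tropomyosin of muscle and stress fibres, had 3 peaks on chromosome 4, all lower in siPiezo2. At its start (chr4:43523473-43523685, 5′ UTR, 16 bp from the start of ENSMUST00000107914, coding for 284 residues) the density was 35.9 in SCR against 22.1 in siPiezo2, a log2 ratio of -0.68 (-1.29 to -0.095, widened -1.55 to 0.20). The intron 2 peak 3354 bp from the start (chr4:43520047-43520435) was alike, with 33.3 and 20.1 and a log2 ratio of -0.70 (-1.34 to -0.093, widened -1.62 to 0.21). The peak between them (chr4:43522246-43522581), with 35.5 and 29.2, had a ratio of -0.27 (-0.82 to 0.26), and its window overlaps that of the start peak, so these 2 share reads. Both lower peaks had been called in SCR only, and 80 and 87 SCR reads lay behind them. Neither was past 1.5-fold with a median-of-ratios factor (0.686 of SCR at the start and 0.675 in the intron).

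Tpm3, the source of short cytoskeletal tropomyosins and of the slow skeletal muscle form, had 4 peaks, all of them at or behind its internal promoter. The first (chr3:89986602-89987038, 27 bp before the start of ENSMUST00000029549, coding for 248 residues) was also the strongest, with 80.2 in SCR against 75.7 in siPiezo2 and a log2 ratio of -0.083 (-0.43 to 0.25). The 5′ UTR peak behind it (chr3:89987612-89987976) was close to it, with 59.8 and 54.8 (-0.12). The lowest of the gene was a promoter peak of an internal noncoding transcript (chr3:89992691-89993109), with 60.6 and 46.0 (-0.39, interval -0.82 to 0.025), and its neighbour at chr3:89992180-89992428 had -0.30. No peak of Tpm3 passed 1.5-fold or had an interval below 0, and without overlapping windows the ratio of the gene was -0.18 (-0.43 to 0.077). The first RefSeq promoter of Tpm3, 6889 bases upstream of that start in GRCm38.p6, had no peak with the symbol Tpm3.

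Tpm4, a short tropomyosin of nonmuscle cells, had 3 peaks, with the smallest difference at the start. The promoter peak (chr8:72888901-72889168, 39 bp before the start of ENSMUST00000003575, coding for 248 residues) had 43.0 in SCR against 40.0 in siPiezo2, a log2 ratio of -0.10 (-0.58 to 0.36). The strongest peak, 1437 bp behind the start in the exon of a single-exon transcript (chr8:72890179-72890842), had 70.5 and 46.3, a log2 ratio of -0.60 (-1.02 to -0.19, widened -1.21 to 0.018). The intron 7 peak (chr8:72901053-72901568) had 48.3 and 32.2 (-0.57, interval -1.08 to -0.084, widened -1.31 to 0.17). Both lay just above the threshold of 0.66, and the windows of the promoter and exon peaks overlap.

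The 5 tropomyosin start peaks can be set side by side by the length of the protein that starts there. In the deposited densities the starts of the 284-residue forms of Tpm1 and Tpm2 were at 0.633 and 0.626 of SCR, past 1.5-fold, and those of the 248-residue forms of Tpm1, Tpm3 and Tpm4 were at 1.14, 0.944 and 0.931. With a median-of-ratios factor the 284-residue starts were at 0.696 and 0.686 and with trimmed mean scaling at 0.697 and 0.688, so neither was then past 1.5-fold. At the same total of densities they were at 0.672 and 0.663, again not past it, while the 248-residue starts were between 0.989 and 1.21. In recovered reads at the same total the Tpm1 start was at 0.622, past 1.5-fold, the Tpm2 start at 0.678, not past it, and the 248-residue starts between 0.878 and 1.14. Summed as deposited, the 284-residue starts had 103.0 in SCR against 64.2 in siPiezo2, and the 248-residue starts had 171.9 and 171.3. This grouping, of peaks with their centre within 100 bp of the start of a transcript with a complete coding sequence in GENCODE M21, was chosen after the values had been seen. It leaves out the Tpm2 peak at -0.27, 975 bp from the start of another 284-residue transcript, although the window of that peak overlaps the one of the Tpm2 start peak. The grouping rests on 2 and 3 peaks in 1 library per condition. It is a description, and no interval or test is given for it.

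**Figure D4:**
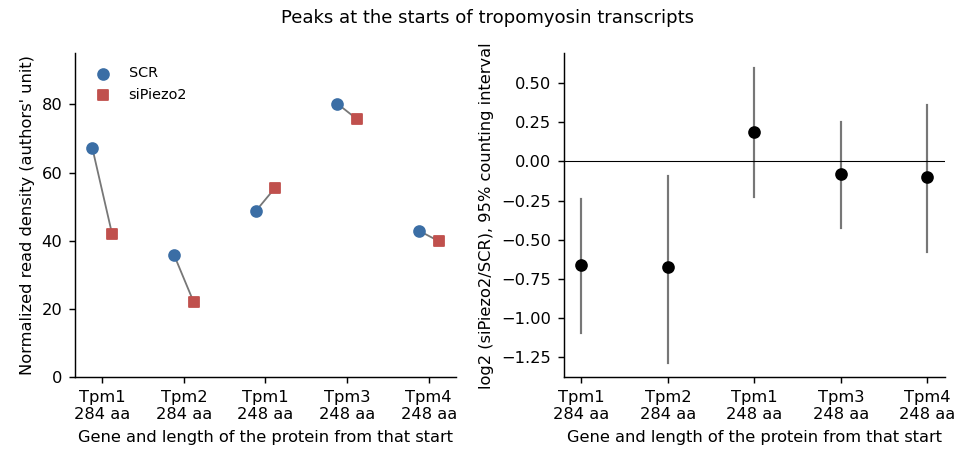
The 5 peaks at the starts of tropomyosin transcripts, with the length of the protein in residues (aa), as normalized read density in both libraries (left, axis from 0) and as log2 ratio of siPiezo2 to SCR with the 95% counting interval (right). The 284-residue starts of Tpm1 and Tpm2 lie at -0.66 and -0.68 with counting intervals below 0, although the widened interval of Tpm2 reaches 0.20, and the 248-residue starts of Tpm1, Tpm3 and Tpm4 lie at 0.19, -0.083 and -0.10 with intervals across 0.

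Actn1 codes for an α-actinin of stress fibres and focal adhesions. Its promoter peak (chr12:80306742-80307755) was near equal in the libraries, with 97.9 in SCR against 92.7 in siPiezo2 (log2 ratio -0.078, interval -0.39 to 0.23). Of its 12 peaks, 9 lie in intron 1, and those 9 ranged from -0.78 to 0.26. The strongest (chr12:80267018-80267903) had 114 and 83.3 (-0.45, interval -0.76 to -0.14, widened -0.92 to 0.019), and the lowest (chr12:80290946-80291219) had 42.3 and 24.2 (-0.78, interval -1.36 to -0.23, widened -1.61 to 0.046). The one peak called in siPiezo2 only, in intron 4 (chr12:80245405-80245609), was weak and had the highest ratio, with 18.3 and 25.8 (0.47, interval -0.18 to 1.12). The sum over Actn1 therefore joins peaks that were lower, such as the strongest one, with peaks near or above 0.

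Actn4 codes for the second nonmuscle α-actinin. Of its 10 peaks, 9 were below 0 and 4 were lower past 1.5-fold, all 4 of them called in SCR only. The 4 peaks called in both libraries gave a log2 ratio of -0.17 (-0.41 to 0.071), against -0.54 over all 10. Its promoter peak at the 5′ end (chr7:28661585-28662052) had 35.0 in SCR against 30.4 in siPiezo2, a log2 ratio of -0.20 (-0.74 to 0.33). The lowest and the strongest peak of the gene were neighbours in intron 1, 9417 and 10280 bp from the start. The strongest (chr7:28651285-28651685) had 63.8 and 36.0 (-0.81, interval -1.28 to -0.36), and the lowest (chr7:28652118-28652578), whose window overlaps it, had 62.0 and 31.2 (-0.97, interval -1.46 to -0.49). Of the 2 further peaks that the table classes as promoter, each near the start of an internal transcript, the one at chr7:28619221-28619656 had 56.0 and 30.4 (-0.86, interval -1.37 to -0.37). The other, at chr7:28594387-28594757, had the highest ratio of the gene, with 30.5 and 36.7 (0.26, interval -0.26 to 0.77). The difference between those 2 internal peaks was 1.12 (0.39 to 1.85, widened 0.056 to 2.18). Over Tpm1 to Tpm4 and Actn4, 9 pairs of peaks within 1 kb of starts of the same gene could be compared. The interval of the difference left 0 in 2 of them, this pair and that of Tpm1, and crossed 0 in the other 7. Among these 7, the peak at the 5′ end of Actn4 stood above the lower internal peak by 0.66 (-0.078 to 1.40) and below the higher one by 0.46 (-0.30 to 1.21). Without overlapping windows the log2 ratio of the gene was -0.47 (-0.64 to -0.31).

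Flna, the X-linked gene of filamin A, which joins actin filaments at right angles and ties them to integrins, had 2 peaks with overlapping windows. The promoter peak at its start (chrX:73290028-73290252) had 46.0 in SCR against 33.4 in siPiezo2, a log2 ratio of -0.45 (-0.95 to 0.038). The stronger peak, in intron 1 (chrX:73288207-73288640), had 53.1 and 48.4 (-0.13, interval -0.56 to 0.29). Neither difference exceeded the counting error, and this was the one gene with both kinds of peak whose promoter ratio was below that of the other peak, by an amount within the counting error (difference -0.32, interval -0.98 to 0.34).

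Myh9, the heavy chain of nonmuscle myosin IIA, had 13 peaks, among them the densest start peak of the 9 genes, in windows of equal length. At that promoter peak (chr15:77726210-77727011) the density was 135 in SCR against 130 in siPiezo2, a log2 ratio of -0.057 (-0.32 to 0.20). The lowest ratios of all 53 peaks lay in exon 3 of the 3-exon transcript ENSMUST00000134878, while the introns below are numbered in the longer ENSMUST00000016771, with 40 introns. The 2 exon peaks (chr15:77691298-77691622 and chr15:77690859-77691164) had 55.2 and 55.9 in SCR and 25.8 and 26.5 in siPiezo2. Their log2 ratios were -1.07 (-1.62 to -0.55) and -1.05 (-1.59 to -0.54), but their windows overlap, so they share reads. The nearby intron 3 peak (chr15:77688031-77688330) was alike, with 66.6 and 34.0 (-0.95, interval -1.43 to -0.49), and its window is separate from theirs. The widened intervals of these 3 peaks also lay below 0, the nearest to it at -0.26, and all 3 were called in SCR only. Over the 6 peaks called in both libraries, Myh9 had a log2 ratio of -0.15 (-0.28 to -0.013 from counting alone, widened not computed), against -0.34 over all 13. The densest intronic peak (chr15:77682864-77683420, intron 3) had 150 and 113 (-0.40, interval -0.68 to -0.14, widened -0.81 to 0.0023), and the highest ratio was that of an intron 1 peak (chr15:77704275-77704711), with 48.3 and 55.6 (0.20, interval -0.22 to 0.61). The intron 3 peak next to the densest intronic one (chr15:77684752-77685146) had 102 and 96.4 (-0.075). A lower and a near-equal peak thus lie side by side, although their windows overlap and share reads.

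Myh10, the heavy chain of nonmuscle myosin IIB, had only 2 peaks under its own symbol, in introns 13 and 15. The first (chr11:68661056-68661335) had 18.4 in SCR against 13.4 in siPiezo2 (log2 ratio -0.43, interval -1.25 to 0.34), and the second (chr11:68673200-68673561) had 30.5 and 27.7 (-0.14, interval -0.71 to 0.42). A stronger peak lies at the start of Myh10 (chr11:68582290-68583000), with its centre 96 bp upstream, but the table gives it to Gm57353, whose start is closer. It had 70.1 and 89.2, a log2 ratio of 0.34 (0.012 to 0.67, widened -0.15 to 0.84), the opposite direction to the intron peaks. With it, the sum for Myh10 was 119 in SCR against 130.3 in siPiezo2, a log2 ratio of 0.13 (-0.14 to 0.39). The direction of Myh10 thus turns on which gene that peak is given to, and 8 of the 9 genes were then below 0. No start of the other 8 genes had a peak under another symbol within 1 kb.

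Peaks in the promoter class had a median nearer to 0 than the intron and exon peaks. The 10 peaks in the table's promoter class (within 1 kb of a transcript start, 4 of them at starts inside the gene) had a median of -0.093 on the log2 scale, where that of all promoter peaks was -0.030. Below 0 were 8 of the 10 (53.7% of all promoter peaks), and 1 of them, in Actn4, was lower past 1.5-fold (5.86%). Of the 15 peaks within 1 kb of a start of their own gene by distance alone, 3 were lower past 1.5-fold (6.39% of all such peaks). The 34 intron peaks had a median of -0.33, against -0.17 over all intron peaks, and 8 of them were lower past 1.5-fold (14.8% of all intron peaks). The 4 exon peaks ranged from -1.07 to -0.60. The 3 peaks in the 5′ UTR class, which also lie at starts (of Tpm1, Tpm2 and Tpm3), had a median of -0.66, and 2 of them were lower past 1.5-fold (5.54% of all peaks of that class), so being at a start did not go with a ratio near 0 in every gene. Within genes that had both kinds, the promoter peaks stood above the others in Tpm1 by 0.91 (0.42 to 1.40, widened 0.18 to 1.64) and in Myh9 by 0.34 (0.055 to 0.63, widened -0.090 to 0.78). The differences in Tpm4 (0.49), Actn4 (0.31), Actn1 (0.094), Tpm3 (0.0039) and Flna (-0.32) had intervals across 0. For Tpm1 this class holds the internal promoter alone, since the table puts its upstream start in the 5′ UTR.

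Peaks that the table gives to no gene but whose nearest start is one of these genes were lower as well. All 13 were below 0 (66.3% of distal intergenic peaks), and 8 of the 13 were lower past 1.5-fold (16.6% of distal intergenic peaks). Actn1 had 6 of them, 5 lower past 1.5-fold, among them a pair at chr12:80205633-80205874 and chr12:80205992-80206192 with 36.2 and 41.5 in SCR and 17.6 and 19.6 in siPiezo2 (log2 ratio -1.04 at the second). The windows of this pair overlap, as do those of another Actn1 pair (chr12:80337770-80338107 and chr12:80338548-80339212), so each pair shares reads. Over separate windows, 6 of 11 were lower past 1.5-fold, with 3 of 4 in Actn1. Myh9 had 5, of which the strongest (chr15:77766896-77767596) had 65.2 and 37.3 (-0.79, interval -1.25 to -0.35). Flna had 1 at -0.72 and Tpm1 had 1 at -0.51. With them, the log2 ratio of Actn1 went from -0.16 to -0.29. The nearest start does not show which gene such a peak acts on.

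Among other genes of the same filament system, those of actin itself had lower ratios than any of the 9. Of 6 actin genes, 3 had peaks: Acta2, the smooth muscle form that marks myofibroblasts (-1.91), Actg1 (-1.51) and Actb (-0.87), and all 3 were lower past 1.5-fold (6.21% of all genes). The 10 myosin light chain and regulator genes had a median of -0.13, and the interval was below 0 in 1 of them (15.2% of all genes). That was Myl9, a regulatory light chain (74.4 and 34.7, -1.08), while Ppp1cb, a phosphatase subunit, had -0.18, and the kinase genes Rock1 and Rock2, the highest, had -0.067 and -0.051. Of 27 other crosslinker and bundler genes, 25 had peaks, with a median of -0.13 and intervals below 0 in 12 (15.2% of all genes) and above 0 in 1 (4.37%). Dmd (-0.55) and Palld (-0.48), the genes of dystrophin and palladin, were the lowest of those above the median density of all genes, and Sptan1 (67.7 and 110.2, 0.69) and Anln (0.21) the highest.

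The partners of tropomyosin on the filament (tropomodulins, leiomodins, caldesmon and troponins) had peaks in 10 of 16 genes, with a median of -0.21. Of these, Lmod1, which seeds filaments in smooth muscle, had the lowest ratio (129.9 and 79.7, -0.70, interval -1.01 to -0.39), and Tmod1, which caps the pointed end of the filament, the highest (56.1 and 82.0, 0.54, interval 0.18 to 0.90). Tnni1 had -0.22 and Tnnt2 0.0036. The other myosin II heavy chains had peaks in 5 of 11 genes with a median of 0.030, and of those dense enough to name Myh11 had -0.23 and Myh7b 0.049. The 14 focal adhesion adaptor genes, where stress fibres end, had a median of -0.24, from Tln2 (-0.36) and Tns1 (-0.35) to Ilk (0.23) and Zyx (0.25). The 10 smooth muscle contractile genes with a peak had a median of -0.32, and 4 of them (Acta2, Myl9, Tagln and Lmod1) were lower past 1.5-fold (6.21% of all genes). Of those above the median density of all genes, Cald1 (-0.097) and Smtn (-0.021) were nearest to 0, and the weaker Cnn1 had 0.042. Lower past 1.5-fold were 15 of 63 smooth muscle peaks (23.8%) and 26 of 125 focal adhesion peaks (20.8%), and higher 4 and 1. These lower shares were near the 26.4% of the 9 genes described (13.5% of all peaks). The interval lay below 0 in 5 of the 10 and 8 of the 14 genes (15.2% of all genes), and above 0 in 0 and 1 (4.37%).

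**Figure D5:**
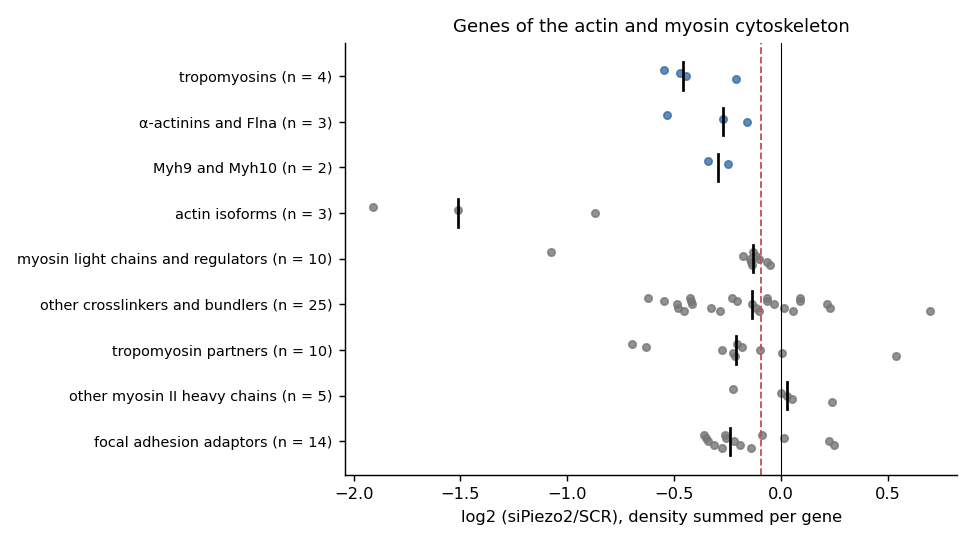
Log2 ratio of siPiezo2 to SCR for each gene with a peak (points, densities summed per gene), by list, with the median of each list (black bars), 0 (solid line) and the median of all genes at -0.093 (dashed line). The tropomyosins lie between -0.55 and -0.21, the actin genes between -1.91 and -0.87, and the points of the 5 lists below the actin genes lie on both sides of the dashed line.

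Markers of the cells that such a culture can hold were read in the same way, since the assay cannot tell fewer cells of a type from less open chromatin per cell. Of 10 fibroblast genes 8 had a peak (Lum and Thy1 had none), which together had 1038 in SCR against 945 in siPiezo2. The intervals of Col1a1 (-0.44) and Col1a2 (-0.50), collagen I genes, lay below 0 and those of the other 6 across it. Of 8 cardiomyocyte genes 3 had a peak, and the defining genes Myh6, Myh7, Tnni3, Pln and Nppa had none (146 and 152). The sums were 376 and 405 for 5 of 6 endothelial genes and 204 and 168 for 3 of 6 leukocyte genes. Cdh5, the endothelial cadherin gene, had 47.7 and 78.0 (0.70, interval 0.32 to 1.08) and was the one marker gene higher past 1.5-fold (1.54% of all genes). For 4 of 6 smooth muscle and pericyte genes they were 450 and 365. Of these, Rgs5, a pericyte gene, had 127 and 56.0 (-1.16), while Cspg4, another pericyte gene, had 147 and 165 (0.16), and Notch3 and Myh11 had intervals across 0. The part of other cells in the values above was not tested. All windows together held 4615335 SCR reads and 2754046 siPiezo2 reads, and 22 of the 53 windows overlap a neighbour, which counts some reads more than once.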

How the data were processed

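Mouse primary cardiac fibroblasts were profiled by ATAC-seq, with 1 library each for SCR and siPiezo2. Alignment (bwa), removal of duplicates (Picard), peak calling (MACS2) and counting (featureCounts) are given in the methods, and the submitters' processing notes list BWA 0.7.12. The table deposited by the authors gives a normalized read density (signal) per peak and library, peak groups and annotation. Its columns of the authors' own comparison (the log2 ratio, the mean log2 density and p-values) were not used. The notes name mm10, but 0 of the 9 genes have GRCm38 coordinates in the table, which are those of GRCm39, so no sequence was read by coordinate.

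Whole reads in windows of 2000 bp were recovered from the 2 density columns by undoing a linear fit (intercept -0.25, slope 0.17), and 100% of peaks came out whole within 0.05. A median peak had 58 and 36 reads. Log2 ratios used a pseudocount of 1, which understates the change of weak peaks, and each interval is that of the reads, moved by the difference between the ratios of densities and reads. It covers counting error only, and reads without molecular identifiers are not independent molecules. With no replicates, no test was made. The variance factor of 2.40 comes from 21089 peaks called in both libraries with 64 to 578 reads in all, the range of the peaks described.

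The genes and lists were chosen with earlier results of these data known. Named were all 9 genes, their promoter peaks, strongest peaks, and lowest and highest ratios above the weakest 25% of all peaks, and in each list the 2 lowest and 2 highest genes above the median density. Other peaks named, the grouping of tropomyosin starts, the peak at the start of Myh10, the peaks within 1 kb of a start by distance and the added intergenic peaks were chosen after seeing the data. Promoters came from RefSeq and protein lengths from GENCODE M21 by transcript ID, which matched 14 of the 15 start peaks. Alternatives were the pseudocount (0.1), the scaling (trimmed mean scaling removed 30% of ratios and 5% of means at each end), the fold (2) and the choice of peaks. On simulated data for 63316 peaks, reads were recovered exactly for 100% and 96.1% of intervals held the true ratio. Versions were scipy 1.17.1, numpy 2.4.6 and pandas 2.3.3 under Python 3.11.15, with matplotlib 3.10.9 for plots.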

Additional observations from a re-analysis of the deposited data

How the results depend on the processing

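The sign of the 9 genes held under most settings, and the size of the ratios depended on the scaling. With a median-of-ratios factor and trimmed mean scaling, Actn1 lay at -0.019 and -0.016, near no difference, and Tpm3 at -0.073 and -0.069. Of the 53 peaks, 46 were below 0 as deposited and 38 and 36 under these scalings, for which the share of all peaks below 0 was not computed. Of 131 values of single genes under other settings, 129 were below 0 and 104 stayed within the counting interval. The exceptions were Tpm1, at 0.19 over promoter peaks only, since that class holds its internal promoter alone, and Myh10, at 0.13 with the peak at its start. The settings share many peaks, so the 131 values are not independent. In reads with no scaling, where the SCR library is the deeper one, all 53 peaks were below 0. The median of the genes, -0.34 as deposited, was -0.20 with a median-of-ratios factor or trimmed mean scaling, -0.25 at the same total of densities, -0.42 from recovered reads at the same total and -1.16 from reads with no scaling. The median of all genes then was 0.043, 0.046, -0.0076, 0.030 and -0.71. It was -0.20 over peaks called in both libraries only, -0.10 over promoter peaks, -0.27 over the strongest peaks, -0.40 over all but promoter peaks and -0.28 over peaks within 1 kb of an own start, where the median of all genes was 0.0086, -0.025, -0.062, -0.13 and -0.037. The count of peaks lower past 1.5-fold, 14 of 53, was 9 under median-of-ratios and trimmed mean scaling (8.35% and 8.23% of all peaks), 47 from unscaled reads (60.9% of all peaks), 3 of 26 among peaks called in both (5.36% of such peaks), 2 at a fold of 2 (2.76%) and 22 of 66 with the intergenic peaks (13.5% of all peaks). Higher past 1.5-fold was 1 peak, not 0, under median-of-ratios and trimmed mean scaling and from reads at the same total, with no share of all peaks computed for it. The cause was not tested beyond what each setting leaves out or rescales. No paired analysis was possible because there was 1 library per condition, and none could be left out. The depth of the siPiezo2 library, with a median of 53 reads at these peaks, limits what single peaks can show.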
